A study of Mus musculus with 20 samples.

Results

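The genes described here are 50 cell cycle genes, chosen by symbol as a list of 14 regulators of the G1 phase and of entry into S phase, 14 S phase genes and 22 mitotic genes. All 50 were found among the 54304 genes measured, all 50 were among the 17435 genes tested, and each was above 1 CPM (read counts scaled to library size) in every library. RNA sequencing of polyadenylated RNA was done on stromal cells with surface PDGFRβ, sorted from gonadal white fat (all mice were male). The cells positive for LY6C were called fibro-inflammatory progenitors (FIPs), and adipocyte precursor cells (APCs) were negative for both LY6C and CD9. Cells positive for CD45 (blood lineage) or CD31 (endothelium) had been gated out of both populations. There were control mice and Mural-Zfp423 transgenic mice, whose name says that mural cells, the cells that wrap small vessels, express the transcription factor Zfp423. All were given as 8 weeks of age, lived at 30 °C and had been on a high-fat diet (60% kcal from fat) for 1 month. There were 5 libraries in each of 4 groups (APCs and FIPs of controls and of mice labelled transgenic), and each library held RNA of 2 mice. With 10 mice per genotype, some FIP pools must hold the same mice as some APC pools, and the tests treat all libraries as independent.

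The cell cycle runs through G1, S phase, G2 and mitosis. In G1, D-type cyclins with the kinases CDK4 and CDK6, and then cyclin E with CDK2, phosphorylate the retinoblastoma protein and release E2F factors, which switch on the genes of DNA replication. CDK inhibitors such as those encoded by Cdkn1a, Cdkn1b and Cdkn2c hold this step back. Genes of mitosis are transcribed later, in G2, and their promoters often carry a short element known as the cell cycle homology region. In fat tissue, precursor cells divide when a high-fat diet begins, and transcripts of mitotic genes are a usual readout of how many cells of a population are cycling. In RNA of a sorted population, more cycling cells and more RNA per cycling cell cannot be told apart.

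The sorted populations showed the markers of their gates. All 8 of the FIP gate and progenitor markers, among them Ly6c1 and Cd9, were higher in FIPs of both genotypes, and 6 of 7 preadipocyte markers were lower. Over all genes, 19.6% were higher and 27.9% lower in control FIPs, and 22.7% and 19% in FIPs labelled transgenic. Zfp423 was not higher in the libraries labelled transgenic. Its range was 4.72 to 5.21 log2 CPM in control APCs and 4.47 to 5.16 in APCs labelled transgenic, and 5.30 to 5.63 and 5.47 to 5.58 in the corresponding FIPs. Genotype is therefore given as labelled. Depth was estimated at 6.6 to 8.5 megareads per library. All 14 macrophage markers were above 0 in all 20 libraries, although cells positive for CD45 had been gated out. Their summed CPM in APCs was 343 to 572 in controls and 217 to 362 in mice labelled transgenic. In FIPs it was 269 to 503 in controls and 183 to 339 in mice labelled transgenic.

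Promoter sequences are given first, because S phase and mitotic genes are known to use different promoter motifs. RefSeq promoters (build GRCm38.p6, 250 bases before to 50 after the start site) were matched for 40 of the 50 genes. The cell cycle homology region was searched as TTTGAA or TTCGAA on both strands, and E2F motifs as TTTGGCGC, TTTCGCGC, TTTCCCGC or TTTGCCGC on both strands. Matches of the E2F motifs can overlap each other, as at the first match of Mcm6. The homology region letters were found in 13 of 17 mitotic genes (76.5%), 3 of 12 S phase genes (25%) and 21.7% of all 27025 genes in the promoter table. The E2F letters were found in 6 of 12 S phase genes (50%), 1 of 17 mitotic genes (5.88%) and 2.6% of all genes. A match is a description of the letters and not a measured binding site.

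The 160 bases before the start site are shown for 3 mitotic and 3 S phase genes whose values are described in what follows, written 5′ to 3′ on the strand of the gene, with matches of both motifs in capitals. Top2a and Mki67 are the proliferation antigens, and Kif11 is a spindle motor. Mcm6 and Rrm1 are the S phase genes that rose in control FIPs, and Mcm5 is a replicative helicase gene that did not. The Top2a stretch is chr11:99024190-99024349 (minus strand), Mki67 is chr7:135716380-135716539 (minus strand) and Kif11 is chr19:37376222-37376381 (plus strand). The Mcm6 stretch is chr1:128359706-128359865 (minus strand), Mcm5 is chr8:75109349-75109508 (plus strand) and Rrm1 is chr7:102441535-102441694 (plus strand). None of the 6 stretches contains a base of an exon annotated in GENCODE M21.
Top2a: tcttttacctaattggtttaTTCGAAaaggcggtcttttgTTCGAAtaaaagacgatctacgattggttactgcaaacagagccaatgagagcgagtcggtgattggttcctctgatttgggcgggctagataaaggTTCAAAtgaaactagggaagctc
Mki67: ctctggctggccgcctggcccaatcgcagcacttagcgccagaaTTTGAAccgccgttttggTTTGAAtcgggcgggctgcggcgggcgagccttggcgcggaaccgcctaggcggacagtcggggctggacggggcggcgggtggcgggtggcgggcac
Kif11: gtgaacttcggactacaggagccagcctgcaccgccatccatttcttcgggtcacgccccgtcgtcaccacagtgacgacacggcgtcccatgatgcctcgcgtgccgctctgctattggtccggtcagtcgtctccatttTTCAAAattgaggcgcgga
Mcm6: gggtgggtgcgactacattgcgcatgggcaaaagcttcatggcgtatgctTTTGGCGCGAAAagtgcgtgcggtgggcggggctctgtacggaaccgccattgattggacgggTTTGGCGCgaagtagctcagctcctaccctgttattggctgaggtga
Mcm5: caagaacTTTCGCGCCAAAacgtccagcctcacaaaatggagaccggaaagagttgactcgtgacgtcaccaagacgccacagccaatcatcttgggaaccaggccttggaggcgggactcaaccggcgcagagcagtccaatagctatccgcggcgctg
Rrm1: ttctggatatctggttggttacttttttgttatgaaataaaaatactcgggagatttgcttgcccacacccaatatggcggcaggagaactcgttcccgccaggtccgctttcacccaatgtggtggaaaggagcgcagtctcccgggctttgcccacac
Top2a held the homology region letters at 3 places in this stretch, Mki67 at 2 and Kif11 at 1. Mcm6 held E2F letters at 2 places, the first of them an overlap of matches on both strands, and Mcm5 held such an overlap at 1 place. The Rrm1 stretch held neither motif.

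The FIPs of control mice were compared with the APCs of control mice to ask how the populations differ in cell cycle transcripts. In controls, 30 of the 50 genes were higher in FIPs and 1, Ccnd1, was lower (limma on log2 CPM, Benjamini-Hochberg adjusted p below 0.05 over all genes tested). The background was 19.6% of all genes higher and 27.9% lower. Of the mitotic genes, 21 of 22 rose in FIPs, and the median difference of the 22 was 0.69 log2 units, against -0.06 over all genes tested. Of the S phase genes, 2 of 14 rose (Mcm6 and Rrm1), and the median difference was 0.02. Of the G1 regulators, 7 of 14 rose and 1 fell, with a median difference of 0.12. In 25 of the 50 genes, 17 of them mitotic, all control FIP libraries lay above all control APC libraries, which held for 14.6% of all genes.

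Among mice labelled transgenic, the comparison of FIPs with APCs gave 18 of the 50 genes higher and 7 lower, against a background of 22.7% of genes higher and 19% lower. Of the mitotic genes, 11 of 22 rose and none fell, with a median difference of 0.43, and all 22 differences were above 0. All 11 had also risen in controls, which is 11 of the 21 called there. Of the S phase genes, 2 of 14 rose (Rrm1 and Gins2) and 5 fell (Mcm3, Mcm4, Mcm5, Cdc6 and Pcna), with a median difference of -0.18 against -0.01 over all genes tested. In 6 genes all FIP libraries lay above all APC libraries, against 16.6% of all genes. No mitotic gene was among the 6. Whether the comparisons differ between the genotypes was tested as an interaction, described further on, and no gene passed.

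**Figure D1:**
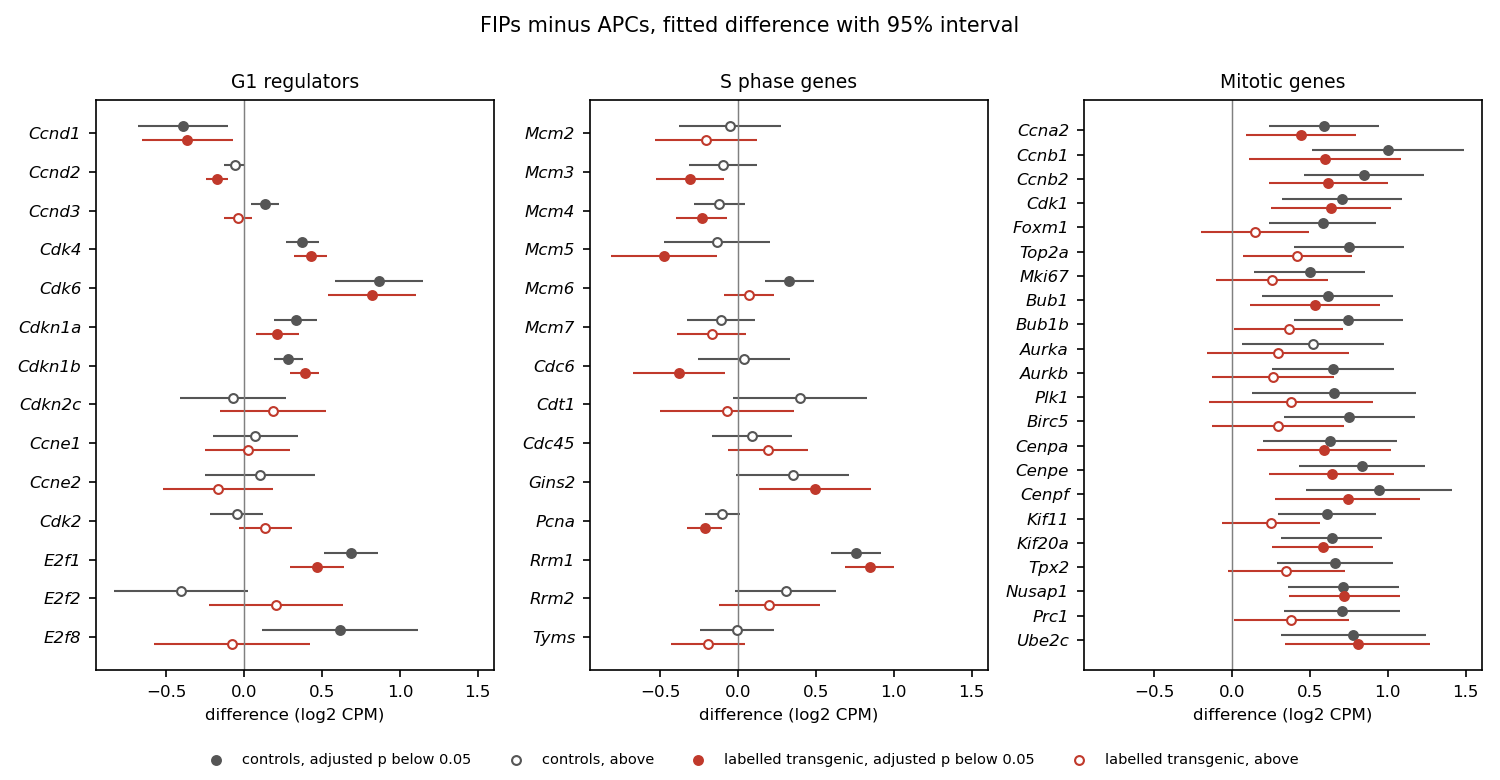
Fitted FIP minus APC difference (x axis, log2 CPM) with its 95% interval for each of the 50 genes, in controls (grey) and in mice labelled transgenic (red); filled points passed the adjusted p threshold. All mitotic points lie to the right of 0 in both genotypes, while the S phase points lie on both sides of it.

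Among the mitotic genes, those of mitotic entry and the proliferation antigens came first, and all 7 rose in control FIPs, against 19.6% of all genes. Top2a, which encodes the topoisomerase that untangles sister chromatids (chromosome 11, 98992943 to 99024189, minus strand), was at 4.86, 5.40, 5.49, 5.56 and 5.47 log2 CPM in control APC libraries 1 to 5 and at 6.26, 6.42, 5.78, 6.17 and 5.91 in control FIPs. It was at 6.13, 5.68, 5.69, 5.16 and 5.56 in APCs labelled transgenic and at 6.52, 6.07, 5.90, 5.73 and 6.10 in FIPs labelled transgenic. The control groups did not overlap, with APC library 1 lowest, and the groups labelled transgenic overlapped. Top2a was higher by 0.75 ± 0.17 (SE) in control FIPs (limma adjusted p = 0.00108), and by 0.42 ± 0.17 in mice labelled transgenic, which missed the threshold (adjusted p = 0.0515).

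Mki67 encodes Ki-67, the antigen commonly stained to count dividing cells (chromosome 7, 135689784 to 135716361, minus strand). Control APC libraries were at 5.41, 6.16, 6.14, 6.15 and 5.98 log2 CPM and control FIPs at 6.69, 6.71, 6.27, 6.48 and 6.18. APCs labelled transgenic were at 6.53, 6.20, 5.98, 5.55 and 5.94 and FIPs labelled transgenic at 6.76, 6.24, 6.15, 6.01 and 6.33. The control groups were separated by only 0.02 log2 units at their nearest libraries, and the other groups overlapped. Mki67 rose by 0.50 ± 0.17 in control FIPs (limma adjusted p = 0.0219), the smallest difference among the 22 mitotic genes, and differed by 0.26 ± 0.17 in mice labelled transgenic (adjusted p = 0.246). The control call was lost without control APC library 1 (0.36, adjusted p = 0.0727), the lowest library, and also without control FIP library 1 (0.44, adjusted p = 0.0579) or 2 (0.44, adjusted p = 0.0591).

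Ccnb2, a B-type cyclin that activates CDK1 at mitotic entry, was at 2.91, 3.57, 3.52, 3.74 and 3.48 log2 CPM in control APCs and at 4.23, 4.65, 4.13, 4.24 and 4.21 in control FIPs. In mice labelled transgenic it was at 3.95, 3.58, 3.83, 3.0 and 3.30 in APCs and at 4.69, 3.96, 4.21, 3.88 and 4.01 in FIPs. The control groups were well apart, and APC library 1 labelled transgenic reached into the range of the FIPs. Ccnb2 rose by 0.85 ± 0.18 in control FIPs (limma adjusted p = 0.000806) and by 0.62 ± 0.18 in FIPs labelled transgenic (adjusted p = 0.0099). Ccnb1, the other B-type cyclin of the list, had the largest mitotic difference in controls, 1.00 ± 0.23, a 2.00-fold higher level, and 0.60 ± 0.23 in mice labelled transgenic. A copy, Ccnb1-ps, could share reads with Ccnb1. It was above 0 in 11 libraries, at most at 1.1 log2 CPM, and rose by 0.57 in control FIPs (limma adjusted p = 0.0292). The copy Ccnb2-ps, above 0 in 19 libraries, differed by 0.02 there. Cdk1, the kinase that both cyclins bind, and the A-type cyclin Ccna2 rose in both genotypes as well. Foxm1, a transcription factor of mitotic genes, rose by 0.58 ± 0.17 in control FIPs and differed by 0.15 ± 0.17 in mice labelled transgenic (adjusted p = 0.505).

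Of the genes of the spindle checkpoint and the mitotic kinases, 5 of 6 rose in control FIPs, against 19.6% of all genes. In FIPs labelled transgenic 1 of 6 rose, Bub1, which is 16.7% and below the 22.7% of all genes. Bub1b, a checkpoint gene that delays anaphase until chromosomes are attached, was at 3.34, 3.85, 4.12, 3.90 and 4.03 log2 CPM in control APCs and 4.56, 4.95, 4.28, 4.56 and 4.63 in control FIPs. Its levels were 4.22, 4.28, 4.01, 3.80 and 3.67 in APCs labelled transgenic and 4.92, 4.20, 4.04, 4.20 and 4.44 in FIPs labelled transgenic. Only the control groups were without overlap, and the difference was 0.75 ± 0.17 (limma adjusted p = 0.00113) against 0.36 ± 0.17 in mice labelled transgenic (adjusted p = 0.0907). Birc5 encodes survivin, a subunit of the chromosomal passenger complex. It was at 1.75, 2.56, 2.55, 2.16 and 2.39 in control APCs and 3.24, 3.47, 2.72, 2.65 and 3.10 in control FIPs, without overlap. It was at 2.78, 2.11, 2.47, 2.43 and 2.18 in APCs labelled transgenic and 3.30, 2.69, 2.65, 2.24 and 2.57 in the FIPs, which overlapped. The Birc5 difference was 0.75 ± 0.20 in controls (limma adjusted p = 0.00447) and 0.30 ± 0.20 in mice labelled transgenic (adjusted p = 0.26). Aurka, the centrosomal Aurora kinase, was the only mitotic gene short of the threshold in controls, at 0.52 ± 0.22 (adjusted p = 0.0573). Aurkb and Plk1, further mitotic kinases, rose by 0.65 ± 0.19 and 0.65 ± 0.25 in control FIPs.

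The 3 centromere genes rose in FIPs of both genotypes, against 19.6% of all genes in controls and 22.7% in mice labelled transgenic. Cenpe, a kinetochore motor, was at 3.01, 3.86, 3.55, 3.69 and 3.67 log2 CPM in control APCs and at 4.51, 4.48, 4.30, 4.50 and 4.17 in control FIPs. It was at 4.39, 3.62, 3.75, 3.14 and 3.49 in APCs labelled transgenic and at 4.85, 4.28, 4.07, 4.03 and 4.36 in FIPs labelled transgenic. Again only APC library 1 labelled transgenic reached the FIP range, and the differences were 0.84 ± 0.19 (limma adjusted p = 0.00138) in controls and 0.64 ± 0.19 (adjusted p = 0.0109) in mice labelled transgenic. Cenpf, a kinetochore protein that accumulates in G2, was at 3.26, 4.03, 3.98, 3.75 and 3.74 in control APCs and 4.88, 4.78, 4.53, 4.90 and 4.39 in control FIPs, a difference of 0.94 ± 0.22 without overlap (limma adjusted p = 0.00176). The Cenpf levels labelled transgenic were 4.53, 3.91, 3.98, 3.0 and 3.45 in APCs and 5.13, 4.37, 4.38, 4.14 and 4.56 in FIPs, with a difference of 0.74 ± 0.22 (limma adjusted p = 0.0111). Cenpa, the centromeric histone, rose by 0.63 ± 0.21 and 0.59 ± 0.21.

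All 6 genes of the spindle, its midzone and the ubiquitin step of mitotic exit rose in control FIPs, against 19.6% of all genes. Of these, Kif20a, Nusap1 and Ube2c also rose in FIPs labelled transgenic, against 22.7% of all genes. Nusap1, a spindle protein that bundles microtubules, was at 2.58, 2.99, 3.01, 3.21 and 3.32 log2 CPM in control APCs and 3.71, 3.83, 3.55, 3.93 and 3.67 in control FIPs. It was at 3.51, 2.99, 3.11, 2.53 and 3.02 in APCs labelled transgenic and 4.20, 3.91, 3.55, 3.36 and 3.75 in FIPs labelled transgenic. The difference had the same size in both, 0.72 ± 0.17 (limma adjusted p = 0.00187 in controls and 0.00181 in mice labelled transgenic), although only the control groups did not overlap. Kif20a, a kinesin of cytokinesis, was at 3.14, 3.49, 3.54, 3.35 and 3.57 in control APCs and 3.95, 4.38, 3.78, 4.22 and 3.96 in control FIPs. It was at 3.90, 3.25, 3.63, 3.12 and 3.25 in APCs labelled transgenic and at 4.48, 3.94, 3.81, 3.84 and 3.99 in the FIPs. It rose by 0.64 ± 0.15 (limma adjusted p = 0.00199) and 0.58 ± 0.15 (adjusted p = 0.00438). In GENCODE M21, 29.3% of the exon bases of Kif20a lie over Cdc23 on the other strand, and whether the counting used strand is not stated here. Cdc23 itself differed by -0.01 in controls (adjusted p = 0.855). Kif11, Tpx2 and Prc1 rose by 0.61 to 0.71 in control FIPs and differed by 0.25 to 0.38 in mice labelled transgenic.

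The mitotic genes varied together from library to library. After subtraction of the group means, all 231 pairs of mitotic genes correlated above 0 over the 20 libraries, with a median Pearson r of 0.79, and the median was 0.48 for pairs of S phase genes and 0.58 for an S phase with a mitotic gene. G1 regulators were looser, with a median of 0.23 among themselves and 0.38 with mitotic genes. These are descriptions only, because all genes of a library share its sequencing depth and scaling. The mean of the 22 mitotic genes was 3.04, 3.61, 3.6, 3.51 and 3.67 log2 CPM in control APC libraries 1 to 5 and 4.26, 4.49, 3.92, 4.23 and 4.03 in control FIPs, without overlap. It was 4.01, 3.65, 3.77, 3.16 and 3.38 in APCs labelled transgenic and 4.60, 4.06, 3.94, 3.70 and 4.02 in FIPs labelled transgenic, with overlap. Each of these FIP means lay above the APC mean of the same number, although no label says that a number marks the same mice. A single library set the end of the range in most genes. Control APC library 1 was the lowest of its group in 20 of 22 mitotic genes, APC library 1 labelled transgenic the highest in 17 and library 4 the lowest in 17, and FIP library 1 labelled transgenic the highest in 22 and library 4 the lowest in 18. Among control FIPs, library 2 was highest in 18 of 22 and library 3 lowest in 14.

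**Figure D2:**
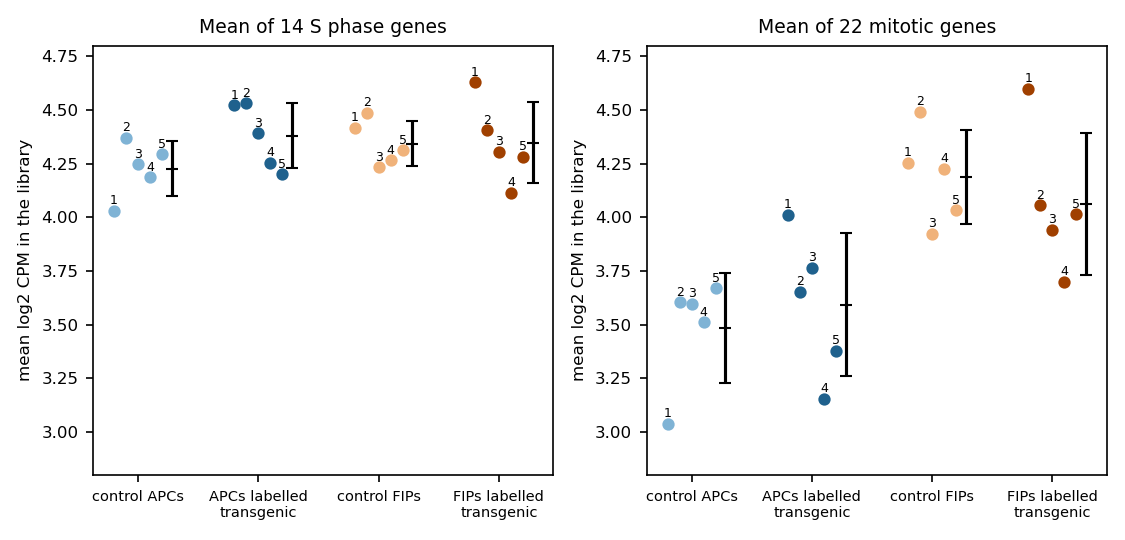
Mean log2 CPM (y axis) of the 14 S phase genes (left) and the 22 mitotic genes (right) in each library, with the replicate number beside each point and the group mean ± SD as a bar. Mitotic means of control FIPs (3.92 to 4.49) lie above those of control APCs (3.04 to 3.67), while the S phase means of all groups overlap.

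The counts depended on these libraries to different degrees. With each library left out in turn, 18 to 22 mitotic genes rose in control FIPs, with 18 called without control APC library 1 and 18 without control FIP library 2. In mice labelled transgenic the count ranged from 7 to 13 against 11 with all libraries, and was 7 without FIP library 1, APC library 4 or APC library 5. With the summed macrophage markers as a covariate, an alternative added after the data were seen, 22 mitotic genes rose in control FIPs and 14 in FIPs labelled transgenic. Of the markers of other cells, 10 of 10 mural, 9 of 10 endothelial, 8 of 9 mesothelial and all 6 erythroid markers tested were lower in control FIPs than in control APCs, while the endothelial marker Tek was higher by 0.83. In mice labelled transgenic, 6 of 10 mural, 1 of 10 endothelial, 1 of 9 mesothelial and 3 of 6 erythroid markers were lower in FIPs. Over all genes, 27.9% were lower in control FIPs and 19% in FIPs labelled transgenic. The endothelial and mesothelial counts labelled transgenic were thus below the share of all genes. Summed mural markers were at 841 to 1167 CPM in control APCs and 460 to 499 in control FIPs, and erythroid markers at 805 to 1544 and 451 to 522. Summed endothelial markers were at 802 to 979 and 724 to 877, mesothelial markers at 253 to 283 and 192 to 275 in the same groups, and lymphocyte markers at 11.3 to 27.3 and 4.22 to 14.8, with Nkg7 at 0 in both and Cd3d and Trac at 0 in control FIPs. Labelled transgenic, summed mural markers were at 790 to 922 CPM in APCs and 476 to 603 in FIPs, erythroid markers at 454 to 1043 and 308 to 559, endothelial markers at 751 to 909 and 773 to 970, and mesothelial markers at 183 to 258 and 226 to 256. Wt1, the highest mesothelial marker, rose by 0.43 in these FIPs, while 8 of 9 were below 0 (median of all -0.49). In control FIPs Wt1 differed by 0.32, which was not called, while 8 of 9 were below 0 (median of all -1.01). The summed mesothelial levels weigh Wt1 most and so say less about the other markers. Tek rose by 0.75 in FIPs labelled transgenic, while 6 of 10 endothelial markers were below 0. The part of these cells in the mitotic difference was not tested. Summed macrophage markers had a median of 516 CPM in control APCs and 353 in control FIPs, with overlapping ranges. Because the sum moved with cell type in controls, the covariate fit cannot separate macrophage content from cell type there. Labelled transgenic, the medians were 298 in APCs and 299 in FIPs.

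**Figure D3:**
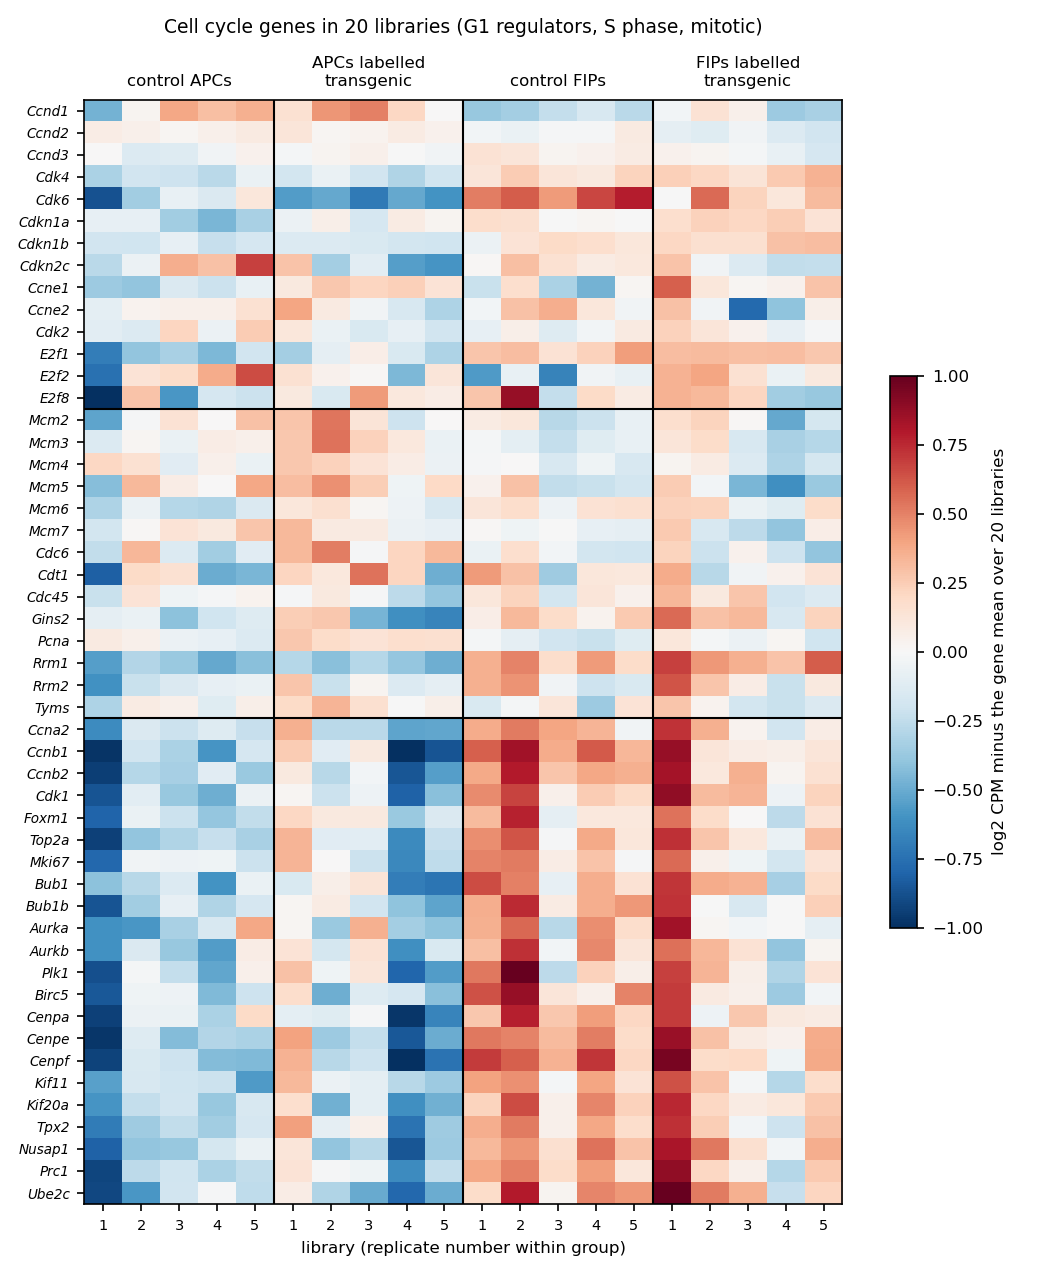
Log2 CPM of each of the 50 genes minus its mean over the 20 libraries (colour, limited to -1 to 1), with G1 regulators, S phase genes and mitotic genes as row blocks and libraries as columns. The mitotic block is mostly blue in control APCs, above all in library 1, and mostly red in control FIPs, and FIP library 1 labelled transgenic is red in all 22 mitotic rows.

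Fewer of the S phase genes passed. In the group of origin licensing and the replication fork, 1 of 11 genes (9.09%) rose in control FIPs, below the 19.6% of all genes. That gene was Mcm6, a subunit of the MCM2-7 helicase (chromosome 1, 128331590 to 128359664, minus strand). It was at 5.24, 5.49, 5.26, 5.25 and 5.40 log2 CPM in control APCs and 5.67, 5.72, 5.50, 5.69 and 5.71 in control FIPs. The groups differed by 0.33 ± 0.08 (limma adjusted p = 0.00148) and were separated by 0.01 at their nearest libraries. Labelled transgenic, Mcm6 was at 5.66, 5.71, 5.57, 5.50 and 5.39 in APCs and at 5.78, 5.77, 5.48, 5.43 and 5.73 in FIPs, which overlapped (0.07 ± 0.08, limma adjusted p = 0.483). The other helicase subunits Mcm2, Mcm3, Mcm4, Mcm5 and Mcm7 were between -0.14 and -0.05 in controls with none passing. The intervals of these 5 reached from -0.48 to 0.27. In mice labelled transgenic they lay between -0.47 and -0.17, and Mcm3, Mcm4 and Mcm5 fell.

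Cdc6 and Cdt1 load the helicase, Cdc45 and Gins2 activate it, and Pcna is the sliding clamp of the polymerases. In control FIPs they differed by 0.04 ± 0.14, 0.40 ± 0.21, 0.09 ± 0.12, 0.35 ± 0.17 and -0.10 ± 0.05, with none passing. In FIPs labelled transgenic, Cdc6 fell by 0.38 and Pcna fell by 0.21, and Gins2 rose by 0.49. Of Gins2, 67.3% of the exon bases lie over Gse1 on the other strand, so its reads are uncertain. The count of S phase genes lower in FIPs labelled transgenic, 5 of 14, was not stable: it was 1 without APC library 2, 1 without FIP library 4, 2 without FIP library 5 and 3 without APC library 1.

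Ribonucleotide reductase supplies the deoxynucleotides for replication, and its large subunit gene, Rrm1 (chromosome 7, 102441695 to 102469771, plus strand), had the smallest adjusted p of the 50 genes in both genotypes. It was at 5.41, 5.67, 5.59, 5.45 and 5.55 log2 CPM in control APCs and at 6.32, 6.46, 6.14, 6.39 and 6.15 in control FIPs. In mice labelled transgenic it was at 5.68, 5.55, 5.68, 5.58 and 5.48 in APCs and at 6.65, 6.40, 6.32, 6.25 and 6.57 in FIPs. Every FIP library lay above every APC library in both genotypes. Rrm1 rose 1.69-fold in control FIPs (0.76 ± 0.08 log2 units, limma adjusted p = 8.3e-08) and 1.79-fold in FIPs labelled transgenic (0.84 ± 0.08, adjusted p = 1.48e-08). Its small subunit gene Rrm2, which is made in S phase, differed by 0.31 ± 0.16 (interval -0.02 to 0.63, adjusted p = 0.112) and 0.20 ± 0.16 (adjusted p = 0.324). Tyms, thymidylate synthase, differed by -0.01 ± 0.12 and -0.19 ± 0.12. Per length of exon sequence, Rrm1 was at 4.22 CPM per kilobase in control APCs and 7.14 in control FIPs, and Rrm2 at 4.51 and 5.62.

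The G1 regulators moved in both directions. The kinase genes Cdk4 and Cdk6 rose in FIPs of both genotypes. Cdk4 was at 6.12, 6.25, 6.23, 6.17 and 6.37 log2 CPM in control APCs and 6.56, 6.69, 6.56, 6.54 and 6.66 in control FIPs, and at 6.26, 6.37, 6.25, 6.14 and 6.24 against 6.68, 6.65, 6.57, 6.70 and 6.79 in mice labelled transgenic. Neither pair of groups overlapped, and Cdk4 rose by 0.37 ± 0.05 (limma adjusted p = 4.79e-06) and 0.43 ± 0.05 (adjusted p = 7.48e-07). Tspan31 lies over 19.7% of its exon bases on the other strand and fell by 0.13 and 0.19, the other direction. Cdk6 was at 3.72, 4.25, 4.52, 4.45 and 4.71 in control APCs and 5.11, 5.2, 5.02, 5.26 and 5.38 in control FIPs. It was at 4.04, 4.08, 3.89, 4.08 and 4.0 in APCs labelled transgenic and 4.59, 5.16, 4.82, 4.71 and 4.91 in the FIPs. Both pairs were without overlap, with APC library 1 lowest in controls. Cdk6 rose 1.82-fold in control FIPs and 1.77-fold in FIPs labelled transgenic (limma adjusted p = 2.87e-05 and 4.62e-05).

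Of the 3 D-type cyclins, the partners of these kinases, Ccnd3 rose and Ccnd1 fell in control FIPs. Ccnd1 was at 4.46, 4.96, 5.32, 5.24 and 5.29 log2 CPM in control APCs and 4.56, 4.60, 4.70, 4.78 and 4.67 in control FIPs. It was at 5.09, 5.38, 5.44, 5.14 and 4.94 in APCs labelled transgenic and 4.91, 5.08, 4.99, 4.57 and 4.61 in the FIPs. Control APC library 1 lay below all control FIPs, while the other 4 lay above them. Ccnd1 fell in control FIPs by 0.39 ± 0.14 (limma adjusted p = 0.0259) and in FIPs labelled transgenic by 0.37 ± 0.14 (adjusted p = 0.0406). Without control APC library 1 the control difference was -0.54, and the call was lost without control APC library 3, 4 or 5 or control FIP library 1 or 2, at -0.38 to -0.33 with limma adjusted p of 0.0506 to 0.0769. It was also lost with the macrophage markers as covariate (-0.23, limma adjusted p = 0.157). A neighbouring gene, LTO1, lies over 23.4% of the exon bases of Ccnd1 on the other strand and fell by 0.43 in control FIPs.

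Ccnd2 was the highest of the 3 D-type cyclins per length of exon sequence, with 27.5 CPM per kilobase in control APCs against 11.4 for Ccnd3 and 7.22 for Ccnd1, an order that held in the means of all 4 groups. The length merges the exons of all annotated transcripts (9.41 kb for Ccnd2, 8.78 for Ccnd3 and 4.71 for Ccnd1). The order for the transcripts actually made could therefore differ. Ccnd2 was at 8.03, 8.01, 7.98, 8.01 and 8.05 log2 CPM in control APCs and 7.93, 7.89, 7.95, 7.95 and 8.05 in control FIPs (-0.06 ± 0.03, limma adjusted p = 0.131). Labelled transgenic, it was at 8.08, 7.98, 7.99, 8.04 and 8.00 in APCs and 7.87, 7.84, 7.92, 7.82 and 7.77 in FIPs, without overlap, and fell by 0.17 ± 0.03 (limma adjusted p = 0.000211). Ccnd3 was at 6.70, 6.56, 6.57, 6.66 and 6.74 in control APCs and 6.84, 6.82, 6.72, 6.74 and 6.78 in control FIPs, which touched in range, and rose by 0.13 ± 0.04 (limma adjusted p = 0.0139). Labelled transgenic, Ccnd3 was at 6.68, 6.72, 6.75, 6.69 and 6.66 in APCs and 6.74, 6.72, 6.68, 6.62 and 6.53 in FIPs (-0.04 ± 0.04). The direction for Ccnd2 in controls was 0.00 with libraries centred on their medians, so no direction is given for it there, and it was called only without control FIP library 5 (-0.09, limma adjusted p = 0.0338) or with quantile normalization (-0.10, limma adjusted p = 0.0327).

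Of the CDK inhibitors, 2 of 3 rose in FIPs of both genotypes. Cdkn1b, the inhibitor of quiescent cells that binds cyclin E with CDK2, was at 6.40, 6.39, 6.51, 6.36 and 6.42 log2 CPM in control APCs and 6.53, 6.73, 6.78, 6.76 and 6.70 in control FIPs. It was at 6.45, 6.45, 6.44, 6.41 and 6.39 in APCs labelled transgenic and 6.80, 6.75, 6.75, 6.88 and 6.90 in the FIPs. No groups overlapped between the cell types, and Cdkn1b rose by 0.28 ± 0.04 (limma adjusted p = 2.72e-05) and 0.39 ± 0.04 (adjusted p = 4.06e-07). Cdkn1a, a target of p53, was at 6.84, 6.84, 6.57, 6.46 and 6.60 in control APCs and 7.10, 7.08, 6.92, 6.94 and 6.92 in control FIPs. It was at 6.86, 6.98, 6.75, 7.0 and 6.95 in APCs labelled transgenic and 7.09, 7.15, 7.13, 7.17 and 7.06 in the FIPs, again without overlap between cell types of a genotype. It rose by 0.33 ± 0.07 (limma adjusted p = 0.00038) and 0.21 ± 0.07 (adjusted p = 0.0132) in FIPs. Cdkn2c, an inhibitor of CDK4 and CDK6, was at 5.16, 5.37, 5.79, 5.72 and 6.11 in control APCs, a wide spread, and at 5.44, 5.73, 5.58, 5.51 and 5.53 in control FIPs. It was at 5.71, 5.09, 5.32, 4.88 and 4.84 in APCs labelled transgenic and 5.71, 5.39, 5.29, 5.18 and 5.19 in the FIPs, and passed in neither comparison (limma adjusted p = 0.746 and 0.389).

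E2f1, an activating E2F factor, was at 4.20, 4.50, 4.57, 4.44 and 4.70 log2 CPM in control APCs and 5.17, 5.2, 5.04, 5.12 and 5.31 in control FIPs. It was at 4.55, 4.8, 4.96, 4.74 and 4.58 in APCs labelled transgenic and between 5.16 and 5.21 in all 5 FIP libraries labelled transgenic. FIPs lay above APCs without overlap in both genotypes, and E2f1 rose by 0.69 ± 0.08 (limma adjusted p = 1.02e-06) and 0.47 ± 0.08 (adjusted p = 0.00011). E2f8, an atypical repressing E2F, was low, at 0.07, 1.57, 0.70, 1.12 and 1.07 in control APCs and 1.56, 2.16, 1.05, 1.48 and 1.37 in control FIPs, with overlap (0.62 ± 0.24, limma adjusted p = 0.0397). Its levels labelled transgenic were 1.38, 1.13, 1.71, 1.39 and 1.36 in APCs and 1.63, 1.61, 1.5, 0.94 and 0.91 in FIPs (-0.08 ± 0.24). The control call of E2f8 was lost without control APC library 1 or 3 or control FIP library 1, 2 or 4, at 0.41 to 0.63 with limma adjusted p of 0.058 to 0.133. It was also lost with log2(CPM + 1) (0.42, limma adjusted p = 0.0581), with log2(CPM + 0.1) (0.59, adjusted p = 0.06) and with only the groups compared in the fit (0.62, adjusted p = 0.086). Ccne1, Ccne2, Cdk2 and E2f2 passed in neither genotype.

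Further genes of these pathways were counted from lists of other members. Over all genes, 19.6% rose and 27.9% fell in control FIPs, and 22.7% rose and 19% fell in FIPs labelled transgenic. Of 72 other mitotic genes, 44 rose (61.1%) and 3 fell (4.17%) in control FIPs, with a median difference of 0.59. In FIPs labelled transgenic 22 rose (30.6%) and 3 fell (4.17%), with a median of 0.36. Lmnb1, which encodes lamin B1, rose by 0.82 ± 0.09 in control FIPs (limma adjusted p = 4.43e-07) and 0.61 ± 0.09 in FIPs labelled transgenic. Anln, the actin-binding protein anillin of the cleavage furrow, rose by 1.01 ± 0.18 and 0.83 ± 0.18. Ect2, which positions the furrow, rose by 0.78 ± 0.15 in control FIPs, and Espl1, which encodes separase, by 0.71 ± 0.15. Of 52 other S phase genes, 7 rose (13.5%) and 4 fell (7.69%) in control FIPs, with a median of 0.04, and 5 rose (9.62%) and 4 fell (7.69%) in mice labelled transgenic, shares below those of all genes in both directions. Dbf4, the activator of the CDC7 kinase, rose by 0.56 ± 0.17 and 0.58 ± 0.17, and Rpa2, a subunit of the single-strand binding protein, fell by 0.50 and 0.56.

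A list of 35 genes held pocket proteins, E2F partners and other regulators, mostly of G1, and included Wee1 and the receptor gene Pdgfra. Of these, 8 rose (22.9%) and 7 fell (20%) in control FIPs, and 9 rose (25.7%) and 8 fell (22.9%) in FIPs labelled transgenic. In controls 19.6% of all genes rose and 27.9% fell, and in mice labelled transgenic 22.7% and 19%, so these shares were near the background. Wee1, the kinase that holds CDK1 inactive before mitosis, rose by 0.97 ± 0.07 (limma adjusted p = 5.49e-10) and 0.85 ± 0.07. Rb1, the retinoblastoma gene itself, fell by 0.34 in control FIPs. Cdkn2a, which encodes a CDK4 and CDK6 inhibitor and ARF, was listed at 0 in all 5 APC libraries labelled transgenic and in 4 of 5 control APCs, with 0.17 in the other. It was at 1.42, 1.77, 1.33, 2.13 and 2.06 log2 CPM in control FIPs and at 1.84, 1.92, 1.37, 2.46 and 2.64 in FIPs labelled transgenic. Every FIP library was thus above every APC library. Other CDK inhibitor genes of the list went both ways. Cdkn1c fell by 0.56 in control FIPs (limma adjusted p = 0.000811) and was not called in mice labelled transgenic (-0.29, adjusted p = 0.0601). Cdkn2b rose by 0.64 and 1.25. Cdkn2d was not called in controls (-0.13) and fell in FIPs labelled transgenic (-0.25, limma adjusted p = 0.0239). Of 20 p53 pathway genes, 6 rose (30%) and 2 fell (10%) in control FIPs, and 11 rose (55%) and 5 fell (25%) in FIPs labelled transgenic. Plk2 rose by 0.78 ± 0.04 and 0.67 ± 0.04, and Pmaip1, which encodes the pro-apoptotic protein NOXA, by 1.90 ± 0.18 and 2.16 ± 0.18.

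The libraries labelled transgenic were then compared with controls within each cell type. In FIPs, no cell cycle gene was called in either direction by limma, against a background of 0.241% of all genes higher and 0.132% lower. At an unadjusted p below 0.05 there were 6 of 50, 12%, near the 10.6% of all genes. They were the G1 regulators Ccnd2 (-0.11 ± 0.03), Ccnd3 (-0.12 ± 0.04), Cdk6 (-0.36 ± 0.14), Cdkn1b (0.12 ± 0.04), Ccne1 (0.38 ± 0.13) and E2f2 (0.47 ± 0.21), with limma adjusted p between 0.181 and 0.428. The mitotic genes had a median difference of -0.12, 19 of 22 were below 0, and their 95% intervals reached from -0.79 to 0.49. The S phase genes had a median of 0.01.

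In APCs, 3 of the 50 genes were higher in the libraries labelled transgenic and none was lower, against a background of 2.1% of all genes higher and 5.91% lower. At an unadjusted p below 0.05 there were 9 of 50, 18%, below the 25.5% of all genes. Pcna, at 6.29, 6.25, 6.14, 6.12 and 6.06 log2 CPM in control APCs and 6.47, 6.38, 6.34, 6.37 and 6.36 in APCs labelled transgenic, rose by 0.21 ± 0.05, a 1.16-fold higher level (limma adjusted p = 0.0298). The groups did not overlap, and Pcna was at 6.18, 6.11, 6.01, 5.98 and 6.08 in control FIPs and at 6.31, 6.18, 6.14, 6.22 and 6.0 in FIPs labelled transgenic, which did. A copy of the gene, Pcna-ps2, that could share reads with it was above 0 in all 20 libraries and rose by 0.24 in APCs (limma adjusted p = 0.0454).

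Ccne1, the cyclin E that starts S phase, was at 2.24, 2.21, 2.46, 2.39 and 2.53 log2 CPM in control APCs and 2.70, 2.87, 2.82, 2.84 and 2.74 in APCs labelled transgenic, without overlap. It was at 2.38, 2.77, 2.29, 2.13 and 2.62 in control FIPs and 3.2, 2.72, 2.62, 2.65 and 2.89 in FIPs labelled transgenic, with overlap. It rose by 0.43 ± 0.13 in APCs (limma adjusted p = 0.0486), close to the 0.38 ± 0.13 of FIPs, which was not called (adjusted p = 0.253). Cdkn1a, whose values are given above, rose by 0.25 ± 0.07 in APCs (limma adjusted p = 0.0333), with APC libraries overlapping between genotypes, and differed by 0.13 ± 0.07 in FIPs (adjusted p = 0.525). No mitotic gene was called in APCs, and the 22 had a median difference of 0.10, with intervals from -0.56 to 0.66. The S phase genes had a median of 0.18, against -0.03 over all genes tested, and 12 of 14 were above 0.

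These 3 calls were not stable, and that of Ccne1 was lost in 16 of 20 fits that left a library out. It was also lost with log2(CPM + 1), log2(CPM + 0.1), no filter on low values and only the groups compared (limma adjusted p of 0.0516 to 0.118). That of Cdkn1a was also lost with no variance trend (adjusted p = 0.0558). None of the 3 remained without APC library 2, 4 or 5 labelled transgenic, or without control APC library 3, 4 or 5, and 5 genes were called without APC library 1 labelled transgenic. With libraries centred on their medians 8 genes were called, and with only the 2 groups compared in the fit none was. Centring moved the median of all genes from -0.03 to 0.07 and the share of higher genes among all calls in APCs from 26.2% to 62.6%. Macrophage markers moved with this comparison: 8 of 14 fell in APCs labelled transgenic and none rose, against 5.91% of all genes lower and 2.1% higher. No gene stayed called with their sum as covariate. In that fit Pcna differed by 0.23 (limma adjusted p = 0.252), Ccne1 by 0.51 (adjusted p = 0.299) and Cdkn1a by 0.22 (adjusted p = 0.375). Because the sum itself differed between the genotypes, this fit cannot separate macrophage content from genotype. All 6 erythroid markers tested fell as well, with summed levels of 805 to 1544 CPM in control APCs and 454 to 1043 in APCs labelled transgenic. Of the 8 FIP gate and progenitor markers, 6 fell in APCs labelled transgenic, with a median difference of -0.47. Their summed level had a median of 503 CPM in control APCs (lowest 467) and 417 in APCs labelled transgenic (highest 451), without overlap. Of 9 mesothelial markers 3 fell and all 9 were below 0, with a median of -0.88 and summed levels of 253 to 283 and 183 to 258 CPM. The part of erythroid and mesothelial cells, and of cells with FIP markers, in these results was not tested.

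**Figure D4:**
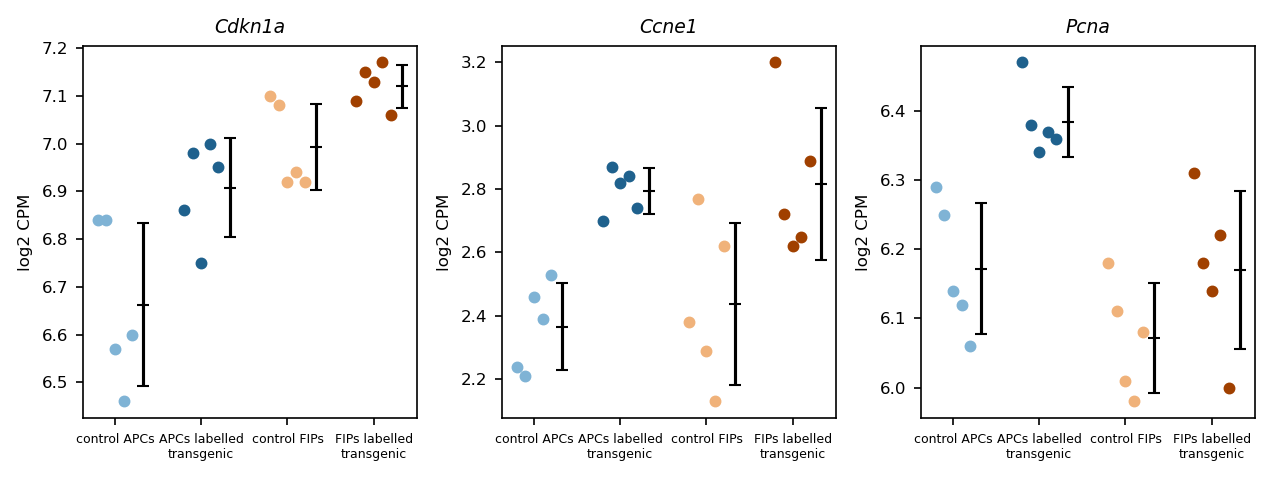
Log2 CPM (y axis) of Cdkn1a, Ccne1 and Pcna in each library of the 4 groups, with the group mean ± SD as a bar; the y axes do not start at 0. APCs labelled transgenic lie above control APCs without overlap for Ccne1 and Pcna, and overlap for Cdkn1a.

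**Figure D5:**
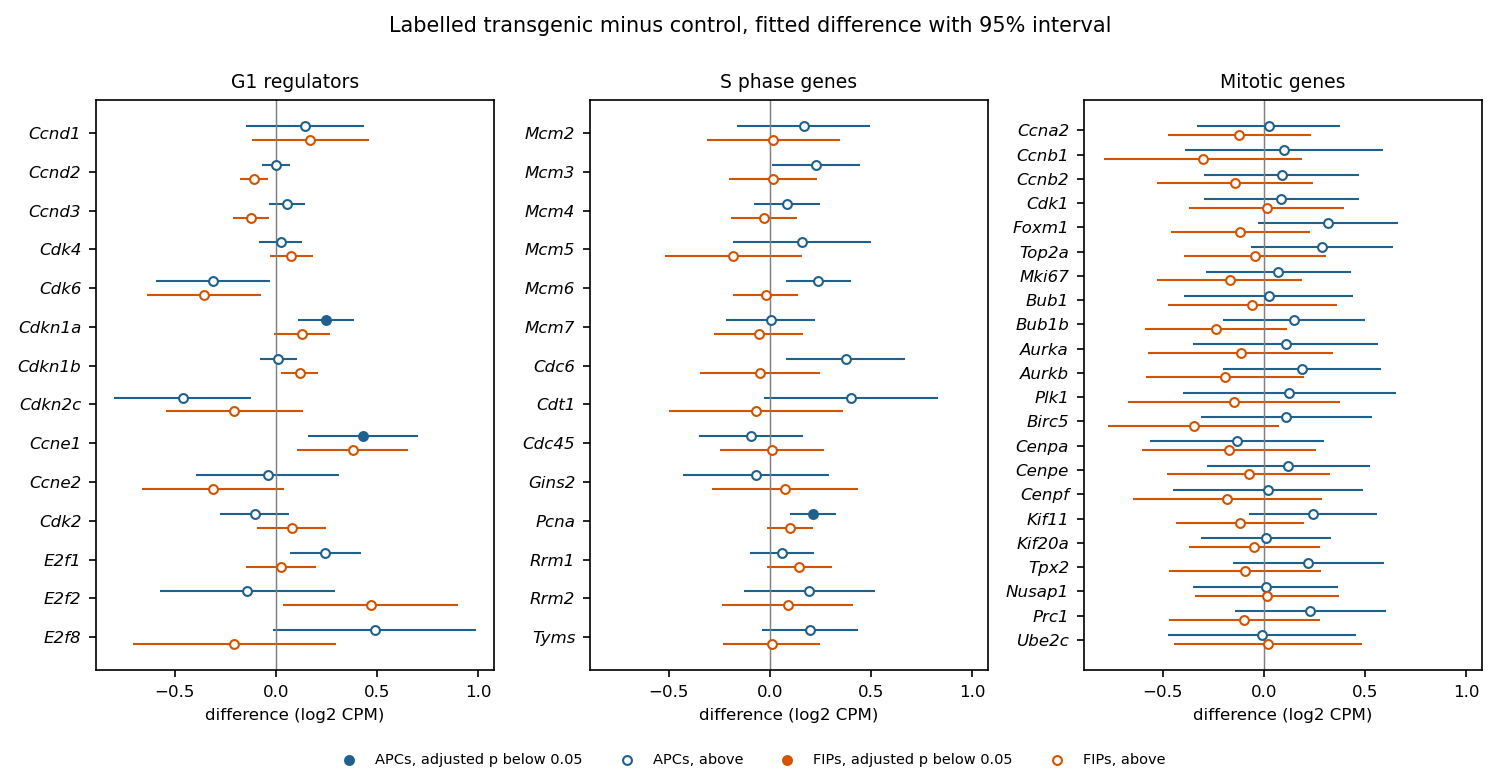
Fitted difference of libraries labelled transgenic minus controls (x axis, log2 CPM) with its 95% interval in APCs (blue) and FIPs (orange) for each of the 50 genes; filled points passed the adjusted p threshold. Only Cdkn1a, Ccne1 and Pcna in APCs are filled, and all mitotic intervals include 0.

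The interaction asks whether the genotype difference was the same in FIPs and APCs. No cell cycle gene passed (limma), and neither did any of the 17435 genes tested, a background of 0%. At an unadjusted p below 0.05 there were 4 of 50, 8%, below the 13.7% of all genes. They were Ccnd2, Ccnd3, Mcm6 and Cdc6, all with a value below 0. Of the mitotic genes none had an unadjusted p below 0.05, 20 of 22 were below 0, and the median was -0.24 against 0.05 over all genes tested. By its arithmetic, a value below 0 is a smaller FIP minus APC difference in mice labelled transgenic than in controls. The intervals of single mitotic genes reached from -1.09 to 0.69. So the 21 mitotic genes called in controls and 11 in mice labelled transgenic are not shown to differ between genotypes.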

How the data were processed

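Values are log2 CPM from the deposited table of all 20 libraries, in which the authors listed a CPM of 1 or less as 0. Per the submitters' processing notes, the tools were Trim Galore 0.4.1, HISAT2 2.0.1, featureCounts 1.4.6 and DESeq2 1.6.3, with build GRCm38. Neither the annotation release nor the strand setting is given there. Depth, read from the steps between low values, was 6.6 to 8.5 megareads. Of these low values, 75.3% to 80% were whole reads within 0.0051 log2 units, so a count test was not applied.

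Genes above 0 in at least 5 libraries were fitted in limma 3.58.1 (R 4.3.3) with 1 mean per group, 16 residual degrees of freedom and a variance trend, with Benjamini-Hochberg adjustment over all 17435 genes at 0.05. Errors of differences are SE, and intervals are those of the fit at 95%. The procedure was tested on simulated data.

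The 50 genes and all lists were chosen with earlier results of these data known, and a call of a list is no independent evidence. Every library's value is given for genes called between genotypes, for the 2 called genes with the smallest adjusted p in each of 9 role groups (mean of at least 1 log2 CPM), for Mki67 and Top2a, and for the D-type cyclins and CDK inhibitors. From each pathway list at most 4 called genes per comparison are named, besides the CDK inhibitors Cdkn1c, Cdkn2b and Cdkn2d. Gene models were from GENCODE M21 (GRCm38). The promoter motifs were searched without a test. Alternatives were 13 other settings, each of 20 libraries left out, and a macrophage covariate added after the data were seen.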

Additional observations from a re-analysis of the deposited data

Results flagged for a closer look

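Within groups of 5 libraries, a library far from the other 4 was found in 6 of 100 groups of values, and chance alone gives about 1 in 20. Control APC library 1 was low for Top2a at 4.86 log2 CPM (the others lay between 5.40 and 5.56), for Mki67 at 5.41 (5.98 to 6.16) and for the mean of the 22 mitotic genes at 3.04 (3.51 to 3.67). Control FIP library 3 was low for Mcm6 at 5.50 (5.67 to 5.72), and control FIP library 2 was high for Ccnb2 at 4.65 (4.13 to 4.24). FIP library 1 labelled transgenic was high for Kif20a at 4.48 (3.81 to 3.99).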

How the results depend on the processing

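The counts of cell cycle genes called between FIPs and APCs stayed within 1.5 times. They were 30 to 36 in controls and 19 to 26 in mice labelled transgenic over 13 settings, and 26 to 32 and 19 to 26 with each library left out, against 31 and 25. The counts between genotypes in FIPs and for the interaction were 0 in all of these fits. The count of 3 between genotypes in APCs was 8 with libraries centred on their medians, 6 with quantile normalization, 5 with a trimmed mean of M-values shift, 7 with array weights, 0 with only the groups compared and 0 with the macrophage covariate, and ranged from 0 to 5 with each library left out. The cause was not tested. Differences that changed sign were those of Ccnd2 between control FIPs and APCs (0.002 with centred libraries) and of Cdkn2c (-0.19 to 0.048 with each library left out, above 0 only without control APC library 5, and 0.12 with the macrophage covariate), neither of them called. Quantile normalization called 5 S phase genes higher in control FIPs against 2. Centring moved the share of higher genes among all calls from 41.3% to 52.8% in controls and from 54.5% to 43.8% in mice labelled transgenic.

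No label says that a number marks the same mice, so the samples were not treated as paired in the main fit. The correlations between cell types are still a hint from the data, since all 10 were above 0. Same-numbered FIP and APC libraries correlated at r = 0.04 to 0.27 in controls, above 0.1 in 2 of 5 pairs, and at 0.06 to 0.33 in mice labelled transgenic, above 0.1 in 3 of 5, and each correlated best with its own number in 3 and 4 of 5. With the replicate number as a block, 32 genes were called between control cell types, 25 in mice labelled transgenic, 0 between genotypes in FIPs, 3 in APCs and 0 for the interaction, and with pools as a random effect 32, 26, 0, 2 and 0. Both fits called Pcna and Cdkn1a in APCs and neither called Ccne1 (0.43, limma adjusted p = 0.068 and 0.0522). Genes near 0 log2 CPM, such as E2f8, rest on few reads.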
